A study of Homo sapiens with 4 samples.

Results

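The promoters described here belong to protein-coding genes whose transcription start site lies in sequence poor in G+C. The promoter was taken as 1 kb to either side of that site. It was included when less than 45% of its hg19 bases were G or C and when no coding gene started on the opposite strand within 1 kb. The rule used sequence and annotation alone and no H3K27ac value. Of 20136 coding genes, 2604 met it, with a median promoter G+C of 40.03%. H3K27ac peaks overlapped 373 of these promoters in at least 1 library, and the joined peaks formed 369 of the 33834 marked regions of the genome. The 369 regions had a median width of 2289 bp and ran from 373 to 10103 bp. Of them, 313 held 1 coding start site, 20 held more, and 36 reached into a promoter without holding a coding start.

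The study used ChIP-seq to map H3K27ac in K562 cells, a line from a human leukaemia that expresses many red cell genes. All libraries came from this line in serum-containing IMDM, were made with the same Abcam antibody, and differed, by their labels, only in the shRNA that the cells had been given. The control cells carried the non-targeting shRNA shNT, and the other cells carried TFAM-sh1 (hairpin 1) or TFAM-sh2 (hairpin 2), which are directed against TFAM, a DNA-binding factor that compacts the mitochondrial genome and is needed to transcribe it. The series asked how the histone hyperacetylation of erythroid cells lacking TFAM is spread over the genome. Each condition had 1 library, so there is no replicate error, no p-value and no test of the shRNAs. Both hairpins are set against the same control library, so a call made in both does not rest on independent comparisons. Intervals below are exact Clopper-Pearson 95% intervals for shares of promoters, which cover counting error only. The deposited values are peak lists. Less H3K27ac per cell and fewer cells carrying the mark cannot be told apart in them, and neither the knockdown of TFAM nor the read depth of a library can be read from them.

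H3K27ac is acetylation of lysine 27 of histone H3, laid down mainly by p300 and CBP on nucleosomes beside active promoters and enhancers. Most promoters of broadly expressed vertebrate genes lie in CpG islands, stretches rich in G+C in which the CpG dinucleotide has not been depleted by methylation and mutation. Promoters outside islands are typical of genes used in few tissues and more often carry a TATA box, the element that places RNA polymerase II at a fixed distance from the start.

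The range of sequence in this class is shown by the 250 bases before the start site, 5′ to 3′ along the gene, in which capitals mark each CpG. CWC22 (chr2:180872025-180872274, minus strand) and N6AMT1 (chr21:30257690-30257939, minus strand) had H3K27ac peaks of high rank in all lists. SPRY1 (chr4:124317700-124317949, plus strand) and RBM41 (chrX:106362053-106362302, minus strand) had peaks in both hairpin lists and none in the control. DNAJC12 (chr10:69597947-69598196, minus strand) and SAMD9L (chr7:92777699-92777948, minus strand) had a peak in the control alone. All positions are in hg19.
CWC22: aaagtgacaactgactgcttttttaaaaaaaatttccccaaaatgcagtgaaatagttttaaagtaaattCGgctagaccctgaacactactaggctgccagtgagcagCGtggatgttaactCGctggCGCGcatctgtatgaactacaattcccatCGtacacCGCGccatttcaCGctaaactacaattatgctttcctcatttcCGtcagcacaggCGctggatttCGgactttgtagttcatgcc
N6AMT1: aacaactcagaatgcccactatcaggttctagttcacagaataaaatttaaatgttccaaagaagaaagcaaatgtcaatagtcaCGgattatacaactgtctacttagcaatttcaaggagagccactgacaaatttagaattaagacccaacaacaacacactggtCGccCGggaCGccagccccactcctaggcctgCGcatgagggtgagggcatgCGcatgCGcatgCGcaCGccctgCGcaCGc
SPRY1: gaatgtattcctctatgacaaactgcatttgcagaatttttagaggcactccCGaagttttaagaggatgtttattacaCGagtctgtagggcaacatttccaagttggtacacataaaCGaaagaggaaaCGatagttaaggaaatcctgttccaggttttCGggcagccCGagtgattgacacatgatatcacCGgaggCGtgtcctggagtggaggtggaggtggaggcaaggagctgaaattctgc
RBM41: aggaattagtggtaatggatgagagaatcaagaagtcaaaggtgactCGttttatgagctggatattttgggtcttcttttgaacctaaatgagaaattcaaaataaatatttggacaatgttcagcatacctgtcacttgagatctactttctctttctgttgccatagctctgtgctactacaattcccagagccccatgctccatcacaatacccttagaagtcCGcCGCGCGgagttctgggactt
DNAJC12: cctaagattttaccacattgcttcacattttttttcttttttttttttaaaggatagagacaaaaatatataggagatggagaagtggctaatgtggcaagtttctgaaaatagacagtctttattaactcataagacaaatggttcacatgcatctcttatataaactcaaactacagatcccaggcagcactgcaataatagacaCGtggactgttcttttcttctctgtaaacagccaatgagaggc
SAMD9L: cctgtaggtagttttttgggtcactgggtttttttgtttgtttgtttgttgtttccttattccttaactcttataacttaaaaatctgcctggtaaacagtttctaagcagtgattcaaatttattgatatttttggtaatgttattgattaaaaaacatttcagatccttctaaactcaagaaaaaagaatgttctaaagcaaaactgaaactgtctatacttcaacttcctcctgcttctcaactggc
CWC22 and N6AMT1 held 12 and 11 CpGs in these 250 bases, SPRY1 held 8 and RBM41 held 5, of which most lay in the last 30 bases. DNAJC12 held 1 CpG and SAMD9L none, so promoters of equal standing under the G+C rule differed widely in CpG.

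A second set shows a gene of red cells, one of inflammation and one of the replicating cell, with capitals on the motifs that were searched for (spelled out with their frequencies further on). They are ALAS2 (chrX:55057411-55057660, minus strand), CXCL8 (chr4:74606036-74606285, plus strand) and H4C3 (chr6:26103911-26104160, plus strand).
ALAS2: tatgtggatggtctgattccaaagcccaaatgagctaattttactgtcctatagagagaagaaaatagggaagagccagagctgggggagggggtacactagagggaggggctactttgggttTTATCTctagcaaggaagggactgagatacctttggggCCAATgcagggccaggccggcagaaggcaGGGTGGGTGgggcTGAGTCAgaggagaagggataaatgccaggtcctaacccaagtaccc
CXCL8: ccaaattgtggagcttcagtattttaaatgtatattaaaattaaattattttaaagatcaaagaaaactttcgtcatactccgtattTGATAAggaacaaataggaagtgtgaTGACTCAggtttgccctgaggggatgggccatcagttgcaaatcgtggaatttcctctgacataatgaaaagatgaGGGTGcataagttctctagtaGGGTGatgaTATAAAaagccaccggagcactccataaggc
H4C3: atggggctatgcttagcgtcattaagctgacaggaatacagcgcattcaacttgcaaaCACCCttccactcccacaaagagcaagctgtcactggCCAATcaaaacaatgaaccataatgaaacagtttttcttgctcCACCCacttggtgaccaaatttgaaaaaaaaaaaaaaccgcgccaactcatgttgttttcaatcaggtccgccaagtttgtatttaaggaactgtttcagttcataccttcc
CXCL8, the neutrophil attractant interleukin-8, carried TATAAA 31 bases before its start and TGACTCA 137 bases before it. ALAS2, the erythroid enzyme of the first step of heme synthesis, carried TTATCT, the other-strand form of AGATAA, at 127, CCAAT at 89 and TGAGTCA at 47 bases before the start. H4C3, a histone H4 gene, carried CCAAT at 155 bases before the start. These are matches of letters and do not show that a factor was bound.

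H3K27ac was seldom listed at these promoters. Of the 2604, 310 had a peak in the control (11.9%, 10.7 to 13.2), 286 in hairpin 1 (11.0%, 9.81 to 12.2) and 306 in hairpin 2 (11.8%, 10.5 to 13.1). Over all coding promoters the shares were 53.7%, 54.8% and 54.9%. Promoters with 45% G+C or more and no opposite start reached 55.9%, 57.3% and 57.4%, and promoters with an opposite start within 1 kb reached 91.6%, 92.0% and 92.0%. Hairpin 1 thus marked fewer G+C-poor promoters than the control and more coding promoters over the genome. The intervals of the 3 libraries overlapped among the G+C-poor ones. The same promoters were counted in each library, so these intervals do not measure the difference between libraries. Counts of promoters marked in one library and not in another are given below. Olfactory and taste receptor genes, which are mostly silent outside sensory cells, made up 377 of the 2604. Without them, 364 of 2227 promoters were marked in at least 1 list (16.3%, 14.8 to 17.9).

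The share of marked promoters climbed with G+C inside the class and past its edge. In the control it was 6.79% below 36% G+C, 7.44% between 38% and 40%, 17.4% between 42% and 44%, and 24.6% between 44% and 45%. Just above the ceiling, between 45% and 46%, it was 32.1%, and from 60% upwards it was 59.1%. Hairpin 1 and hairpin 2 had 5.85% and 5.66% in the lowest of these bands and 25% and 26.1% in the last below the ceiling, within the counting intervals of the control. The marked promoters nearest to the ceiling from below were those of H3C13, ZNF300 and NUDT13, at 44.978% G+C, a value that MMADHC and NUP35 share. The nearest above it were H4C12, DYNC1I2 and GALK2 at 45.027%. On both sides of the ceiling there were promoters with peaks in all lists (H3C13 and NUDT13, DYNC1I2 and GALK2) and promoters with a peak missing from a hairpin (ZNF300 from hairpin 1, H4C12 from hairpin 2).

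**Figure D1:**
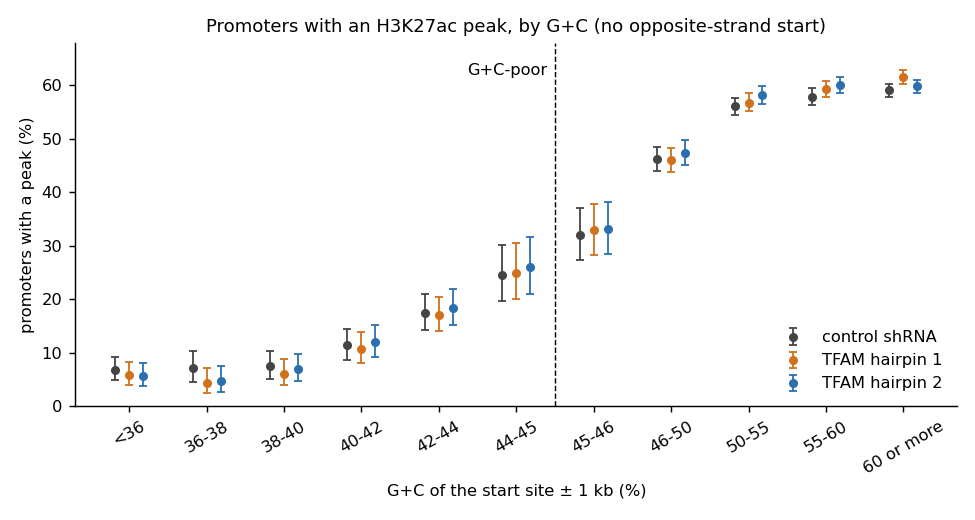
Share of coding promoters with an H3K27ac peak (y axis, %) by G+C of the start site ± 1 kb (x axis, %), for promoters with no opposite-strand start, 1 point per library with its exact 95% interval for counting error. The dashed line is the 45% ceiling. The control share goes from 6.79% in the lowest band to 24.6% just below the line and 59.1% in the highest band.

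Marked shares also climbed with CpG content. The observed number of CpGs over that expected from the C and G content of the promoter, a ratio that CpG islands keep high, had a median of 0.210 over the 2604. Below a ratio of 0.2, 74 of 1177 promoters were marked in at least 1 list (6.29%, 4.97 to 7.83). From 0.4 to 0.6, 86 of 244 were (35.2%, 29.3 to 41.6), and from 0.6 upwards 95 of 137 (69.3%, 60.9 to 76.9). The same steps were present with G+C held between 40% and 45%, where the share went from 7.52% in the lowest band of CpG to 72.1% in the highest. In the highest CpG band, G+C-richer promoters were marked in 75.8% (74.9 to 76.7), which overlaps the interval of the G+C-poor ones. In the 4 lower bands the G+C-richer promoters were marked more often, with intervals that did not overlap those of the whole G+C-poor class. Among marked promoters the ratio had a median of 0.496 where all lists had a peak, as in CWC22 (0.62) and N6AMT1 (0.74). It was 0.461 in those marked in both hairpins and not in the control, 0.244 in those marked in the control alone, and 0.202 in those with no peak. A low ratio was not particular to peaks of the control alone. The median was 0.208 with a peak in hairpin 1 alone and 0.252 in hairpin 2 alone. Where only hairpin 1 or only hairpin 2 lacked a peak, it was 0.251 and 0.206.

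**Figure D2:**
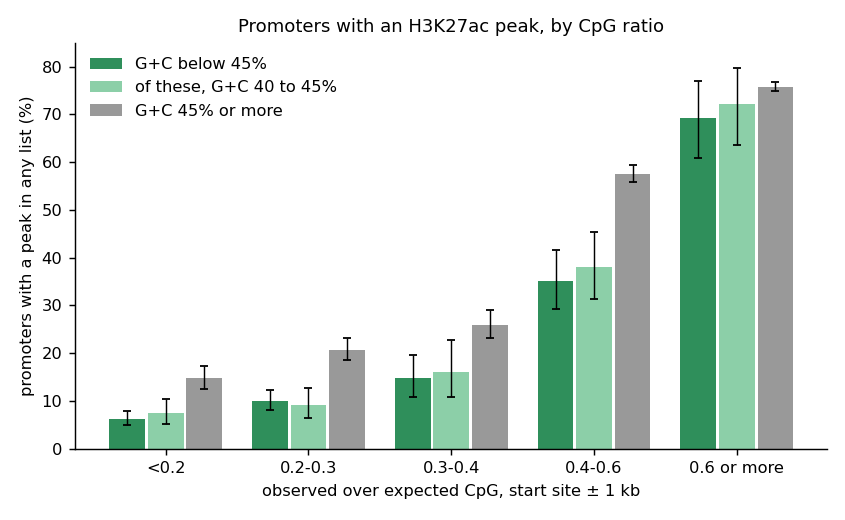
Share of promoters with a peak in at least 1 list (y axis, %) by observed over expected CpG of the start site ± 1 kb (x axis). Bars are the G+C-poor promoters, those of them with 40 to 45% G+C, and promoters with 45% G+C or more and no opposite start, with exact 95% intervals for counting error. In the highest CpG band the bars stand at 69.3%, 72.1% and 75.8%.

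Promoter motifs were sought on both strands from 250 bases before to 50 after the start. GGGCGG, the core of the GC box bound by SP factors, was in 32.2% (26.3 to 38.6) of the 236 promoters marked in all lists, in 5.74% (4.81 to 6.78) of the 2231 unmarked ones and in 61.0% of all coding promoters. CCGGAA, the core of many ETS factor sites, was in 28.4% (22.7 to 34.6) of those marked in all lists, 3.32% (2.61 to 4.15) of the unmarked and 22.6% of all. GGGCGG and CCGGAA each hold a CpG, which itself differed between these sets as given above. TATAAA went the other way, with 18.6% (13.9 to 24.2) in promoters marked in all lists, 33.5% (31.6 to 35.5) in unmarked ones and 9.81% over all coding promoters. On the sense strand between 40 and 20 bases before the start, where a TATA box lies, TATAAA was in 3.39%, 9.91% and 3.78% of the same sets. Median G+C was 42.8% in promoters marked in all lists, 39.7% in unmarked ones and 55.92% over all coding promoters. The rule itself set the class below all coding promoters in G+C. The part of base composition in the share of any motif, here or below, was not tested.

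AGATAA or TGATAA, the form read by GATA factors, was in 27.5% (21.9 to 33.7) of promoters marked in all lists and 36.1% (34.1 to 38.1) of unmarked ones, against 11.4% of all coding promoters. CCAAT, the site of NF-Y, was in 42.8% and 42.9% of these sets and in 35.9% of all. TGACTCA or TGAGTCA, the AP-1 and NF-E2 core, was in 7.20% and 7.31% against 3.58% of all, and CACCC, a core read by KLF factors, in 45.3% and 39.8% against 63.6%. AP-1 and CCAAT matches were therefore about as frequent in marked as in unmarked promoters of this class, and a window without a match says nothing of a factor's binding. Of the 30 promoters marked in the control alone, 2 held GGGCGG and 2 held CCGGAA. None of the 13 marked only in both hairpins held either motif, where a count of 0 of 13 allows a share of up to 24.7%.

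Where all 3 lists had a peak, the mark lay on the start site and further into the gene than upstream of it. A peak covered the start itself in 226 of the 236 promoters in the control (95.8%), 219 in hairpin 1 (92.8%) and 222 in hairpin 2 (94.1%), against 97.2%, 98.2% and 98.0% over all coding promoters marked in all lists. Coverage within 5 kb had a median of 935.5 bp upstream and 1340 bp downstream in the control, 772 and 1130.5 bp in hairpin 1, and 798 and 1342 bp in hairpin 2. More bases were covered downstream than upstream in 67.8%, 69.5% and 74.6% of the promoters, in the same order of libraries. This lean was not particular to the class. At G+C-richer promoters with no opposite start, the share was 68.6% in the control and 69.6% in hairpin 1, and it was also close in hairpin 2. At promoters with an opposite start within 1 kb, the share was 35.8%, 36.6% and 39.0%. Peaks at the 236 ranked lower than those of other promoters at the median. The highest-scoring peak at a start had a median score percentile of 67.0 in its own control list, 61.8 in hairpin 1 and 69.3 in hairpin 2, against 78.1, 79.3 and 81.7 over all coding promoters marked in all lists. Scores were assigned to peaks by the authors and served here to order the peaks of a list, not to compare lists.

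Among the 12 genes of highest rank in all lists, CWC22, a splicing factor that loads the exon junction complex, had score percentiles of 98.8, 91.0 and 97.9 and 2181, 2163 and 2009 bp covered within 5 kb of its start (control, hairpin 1, hairpin 2). NRAS, a small GTPase of growth factor signalling, had 2079, 2005 and 2138 bp covered. MMADHC, which routes vitamin B12 to its enzymes, had 2534, 2467 and 2327 bp, and NUP35, a nuclear pore protein, 3618, 3030 and 3129 bp. In these 4 genes no library differed from the control by as much as 1.5-fold. HIKESHI, the nuclear import carrier of HSP70 proteins, had 2146, 1420 and 1518 bp, and USP40, a deubiquitinase, 2243, 1798 and 1691 bp. IMPA1, which makes free inositol, had 1410, 1230 and 1012 bp, and the methyltransferase gene N6AMT1 had 2305, 1758 and 2084 bp. The control was the longest of the 3 libraries in each of these last 4 genes. LRRFIP2, the read-through gene TRIM39-RPP21, and 2 annotated genes without a symbol completed the 12. TRIM39-RPP21 and 1 of the unnamed genes lie inside other genes (TRIM39 and RPL22), so their peaks cannot be assigned to these starts.

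At the median, covered length at the G+C-poor promoters was shorter under both hairpins than in the control, where over all coding promoters it was longer. Median coverage within 5 kb of the start was 2454, 2046 and 2347 bp over the 236 promoters (control, hairpin 1, hairpin 2), and 2609, 2707 and 2875 bp over all 10143 coding promoters marked in all lists. The median log2 ratio to the control was -0.17 for hairpin 1 (quartiles -0.46 and 0.02) and -0.07 for hairpin 2 (-0.28 and 0.19), beside 0.04 and 0.11 over all promoters. Coverage was shorter than in the control at 170 promoters in hairpin 1 (72.0%, beside 43.8% of all promoters) and at 135 in hairpin 2 (57.2%, beside 33.6%). It was shorter in both hairpins at 105 of 236 (44.5%), beside a background of 22.5%. Both ratios have the same control coverage as their base. Shorter coverage in hairpin 1 was not confined to the class. Among promoters with no opposite start, its median log2 ratio was -0.151 between 44% and 45% G+C and -0.139 between 45% and 46%. Between 46% and 50% it was -0.0774. Hairpin 2 had -0.000226, -0.00256 and 0.0251 in these 3 bands. Over the class the hairpin 2 median was near 0, and it took the other sign (0.00882) when promoters up to 50% G+C were included. Hairpin 2 also had the longer list, with 27007 peaks against 23413 in the control and 23819 in hairpin 1. The part of list length and depth in these ratios was not tested.

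**Figure D3:**
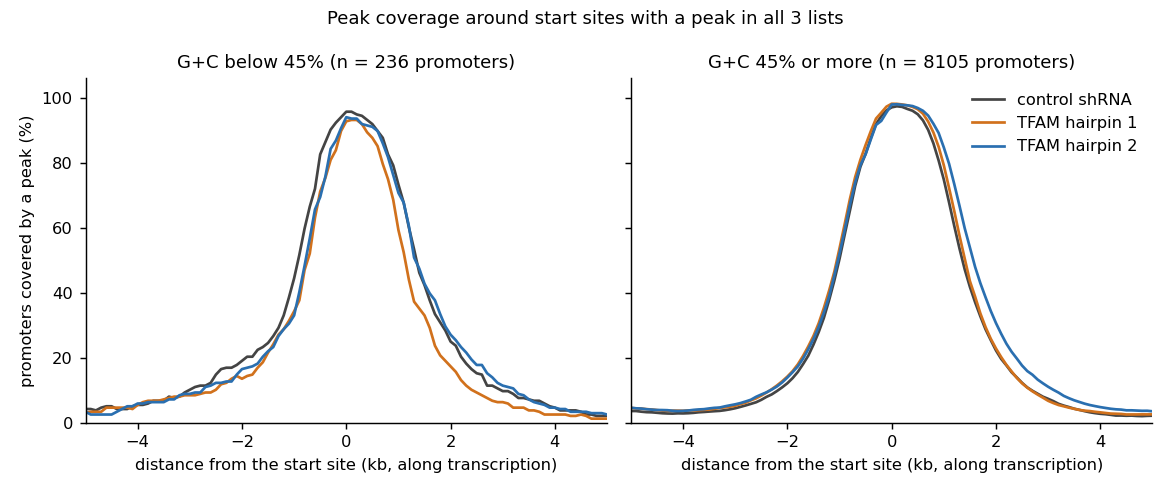
Share of promoters covered by a peak (y axis, %) by distance from the start site along transcription (x axis, kb), 1 line per library, for promoters with a peak in all lists. Among the 236 G+C-poor promoters, 73.3% in the control, 59.3% in hairpin 1 and 70.8% in hairpin 2 are covered 1 kb downstream, where the 8105 G+C-richer ones reach 74.8%, 79.2% and 84.7%.

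In hairpin 1 coverage was lower than in the control on both sides of the start, and in hairpin 2 mainly upstream. At 500 bp upstream of the start, a peak covered 82.6% of the 236 promoters in the control, 71.2% in hairpin 1 and 69.5% in hairpin 2. At the same distance the G+C-richer promoters had 82.8%, 85.5% and 82.7%. Downstream by 500 bp the shares were 91.9%, 87.7% and 91.1% in the G+C-poor class, so there hairpin 2 and the control were close. The 53 promoters under 40% G+C with peaks in all lists had median log2 ratios of -0.31 in hairpin 1 and -0.23 in hairpin 2, and the 183 between 40% and 45% had -0.16 and -0.02. The hairpin 1 medians did not follow G+C step by step, with -0.17 both between 36% and 38% and between 42% and 44%.

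At least 1.5-fold shorter coverage in both hairpins was found at 13 of 236 promoters (5.51%, 2.97 to 9.24), beside 0.749% of all coding promoters marked in all lists. With the higher-scoring 50% of each list the count was 3 of 139 (2.16%, beside 0.364% of promoters outside the class). Of the 13, 8 had under 40% G+C. CXCL8 had 2370, 482 and 969 bp in the same order of libraries, log2 ratios of -2.30 and -1.29. TEX9, a testis-expressed gene, had 3183, 1068 and 1257 bp. SOSTDC1, a secreted antagonist of BMP and WNT signalling, had 3494, 1504 and 1538 bp. MYOM1, a protein of the muscle M-band, had 3629, 950 and 1756 bp, and GLIPR1 had 1771, 632 and 890 bp. In all of these genes both hairpins were well below the control, and hairpin 1 was the lowest. BORCS7-ASMT, a read-through gene that starts within BORCS7, had 2461, 1154 and 1251 bp, and BORCS7 itself shares this region and is counted among the 13 as well. The rest of the 13 included C3AR1, the receptor for complement C3a (2129, 1234 and 1206 bp), SLC7A11, the cystine importer that supplies glutathione synthesis (6893, 4196 and 3779 bp), and AKR1C2, a steroid-reducing enzyme with close copies beside it (1063, 589 and 666 bp). These 3 were chosen for mention after their values were seen. Longer coverage by 1.5-fold in both hairpins was found only at ADTRP (1 of 236, 0.424%, beside 4.27% of all), which had 1179, 2882 and 2655 bp.

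Control peaks were missing from the hairpin lists more often at G+C-poor promoters than at other coding promoters, and about as often as over marked regions of every kind. Of the 310 promoters marked in the control, 59 had no hairpin 1 peak (19.0%, 14.8 to 23.9, beside 4.01% of all coding promoters) and 45 had no hairpin 2 peak (14.5%, 10.8 to 18.9, beside 3.78%). In 30 neither hairpin had a peak (9.68%, 6.62 to 13.5, beside 1.52%). These 30 are called lost below, as a statement on the lists. The share lost was 1.51% (1.26 to 1.79) at G+C-richer promoters and 0.218% (0.0594 to 0.557) at promoters with an opposite start. Counted as joined regions, 29 of 308 control-marked G+C-poor promoter regions were lost (9.42%, 6.4 to 13.2), beside 2386 of 23150 over the whole genome, distal regions included (10.3%, 9.92 to 10.7). Peaks missing from the control differed less from the background. Of promoters with a hairpin 1 peak, 35 had none in the control (12.2%, beside 5.81%), and of those with a hairpin 2 peak 41 had none (13.4%, beside 5.85%). Of the 249 promoters with a peak in both hairpins, 13 had none in the control (5.22%, 2.81 to 8.76, beside 2.95%), and these 13 are called gained. That interval overlaps the 3.33% (2.95 to 3.73) of the G+C-richer promoters. Over the 373 marked promoters, 236 had a peak in all lists (63.3%, against 86.0% of all marked coding promoters). Another 29 lacked only hairpin 1 (7.77%, beside 2.28%) and 15 lacked only hairpin 2 (4.02%, beside 2.07%). A peak in a single list was found at 30 in the control (8.04%, beside 1.4%). There were 22 such promoters in hairpin 1 (5.9%, beside 2.82%) and 28 in hairpin 2 (7.51%, beside 2.87%). Peaks found in 1 list alone were thus above the background in every library. Lost rests on a peak in 1 list and gained on peaks in both hairpin lists, so they are not like counterparts.

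The lost share was higher in the lower G+C range. Under 40% G+C, 18 of 92 control-marked promoters were lost (19.6%, 12 to 29.1), and between 40% and 45% 12 of 218 were (5.5%, 2.88 to 9.42). Of promoters marked in both hairpins, 1 of 54 was gained under 40% G+C (1.85%, 0.0469 to 9.89), an interval that holds the 5.22% of the whole class. The G+C of lost (33.1% to 44.9%) and gained promoters (38.9% to 44.7%) overlapped. The lost promoters had control peaks of low score, with a median percentile of 19.1. Peaks in hairpin 1 alone or hairpin 2 alone were low in their own lists too, with medians of 25.4 and 19.8. Below the 20th percentile of control scores, 15 of 30 promoters were lost (50%, 31.3 to 68.7), against 15.1% (11.5 to 19.3) of G+C-richer promoters in that range. Between the 20th and 40th percentiles the share was 14.5% (6.86 to 25.8) against 4.67% (3.17 to 6.60), and between the 40th and 60th it was 8.57% (3.21 to 17.7) against 2.31% (1.59 to 3.25). Of the 81 promoters between the 60th and 80th percentiles and the 67 above them, 0 were lost, which allows shares of up to 4.45% and 5.36%. G+C-poor promoters had lower scores than others, and in both bands below the 40th percentile a larger share of them was lost. Scores inside a band were not matched between the groups, so loss at a like score was not tested.

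**Figure D4:**
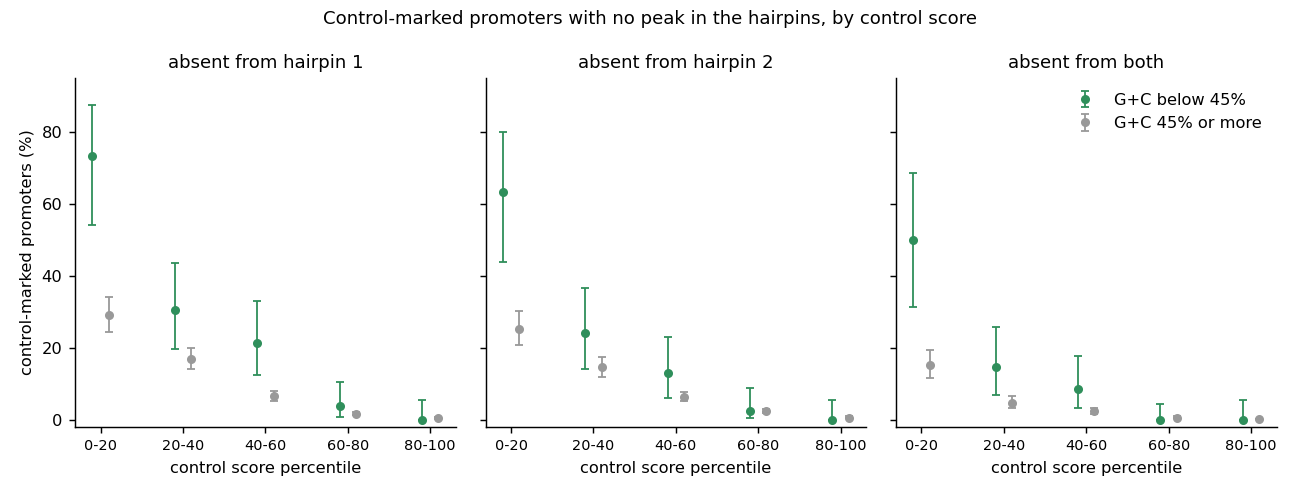
Share of control-marked promoters with no peak in hairpin 1, in hairpin 2 or in both (y axis, %) by score percentile of the promoter's peak within the control list (x axis), for promoters below 45% G+C and for those with 45% or more, without opposite-strand starts. Points carry exact 95% intervals for counting error. The share absent from both is 50% below the 20th percentile of scores and 0 above the 60th percentile for the G+C-poor promoters.

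The 30 lost promoters had a median of 1098 bp covered in the control (373 to 8229 bp) and a highest score percentile of 54.4. Promoters marked in hairpin 1 alone or hairpin 2 alone had similar medians in that library, 1109 and 1047 bp. In 22 of the lost promoters neither hairpin had any covered base within 5 kb, and the control peak covered the start site in 21. The median distance from the start to the nearest peak was 27974.5 bp (hairpin 1) and 25460 bp (hairpin 2). The lost promoter of highest rank in the control was that of SAMD9L. SAMD9L and its neighbour SAMD9 on chromosome 7, cytoplasmic proteins that restrict poxviruses, had 1873 and 911 bp in the control and 0 bp in both hairpins. Their control peaks lay at 92776449 to 92778321 and at 92747063 to 92747973. DDX60, an antiviral helicase, had 747, 0 and 0 bp.

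Among metabolic and signalling genes, AKR1C3, a reductase of steroids and prostaglandins, had 1410 bp in the control and 0 bp in the hairpins. DNAJC12, a co-chaperone of the aromatic amino acid hydroxylases, had 1218, 0 and 0 bp, and NRG4, a ligand of the ERBB4 receptor, had 1184, 0 and 0 bp. HDAC9, a class IIa histone deacetylase, had 2505, 0 and 0 bp, with its control peak at 18534436 to 18536940 of chromosome 7. CCDC80, an extracellular matrix protein, had 1736, 0 and 0 bp, and PCDHGA3, a clustered protocadherin whose start lies inside neighbouring members of the cluster, had 642, 0 and 0 bp. For all 6 the hairpin lists were empty within 5 kb. In contrast, ANGPT1, a ligand of the TIE2 receptor, kept 753 bp in hairpin 1 (2974 and 0 bp in the control and hairpin 2). EVI2B, a leukocyte membrane protein encoded inside NF1, kept 919 bp in hairpin 2 (2204 and 0 bp in the control and hairpin 1), and GDPD4 kept 623 bp there (2287 and 0 bp). In those 3 genes a peak remained further than 1 kb from the start.

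Among the 13 gained promoters, that of RBM41, an RNA-binding protein gene on chromosome X, ranked highest, with 0, 1734 and 1587 bp in control, hairpin 1 and hairpin 2, at score percentiles of 69.6 and 66.3 in the hairpin lists. SPRY1, an inhibitor of receptor tyrosine kinase signalling, had 0, 3578 and 1350 bp. FAXDC2 had 0, 2060 and 1467 bp. COL4A5, a chain of basement membrane collagen, had 0, 913 and 1275 bp, and SLC2A12, a glucose transporter, 0, 845 and 617 bp. CFAP299 had 0, 616 and 821 bp. In these 6 genes the control list was empty within 5 kb. GBP2 (1354, 753 and 3146 bp), C2orf16 (769, 3720 and 2721 bp) and MNS1 (914, 648 and 842 bp) had a control peak within 5 kb but outside 1 kb. Within 5 kb, GBP2 in hairpin 1 and MNS1 in both hairpins had less coverage than the control. GBP2 in hairpin 2 and C2orf16 in both hairpins had more. OR4F3 (0, 589 and 1642 bp) belongs to a group of near-identical receptor genes, which limits the reads that fit a single place.

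LIN28B, which blocks maturation of let-7 microRNAs and is expressed in fetal blood stem cells, had 0, 7967 and 5134 bp. H3C10, a histone H3 gene, had 0, 5405 and 8520 bp, and CHD2, a chromatin remodeller that completes the 13, had 0, 5591 and 5661 bp. The hairpin coverage of these 3 was over 5 kb, and the widest peak in any list was 8841 bp. Whether wider domains were left out of a list is not known, so an empty control list need not mean an unmarked promoter there. Promoters with a peak of 5 kb or more near the start in any list were then left out. Of the rest, 29 of 267 control-marked members were lost (10.9%) and 9 of 211 gained (4.27%). Promoters outside the class had 1.01% lost and 2.62% gained in that setting.

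**Figure D5:**
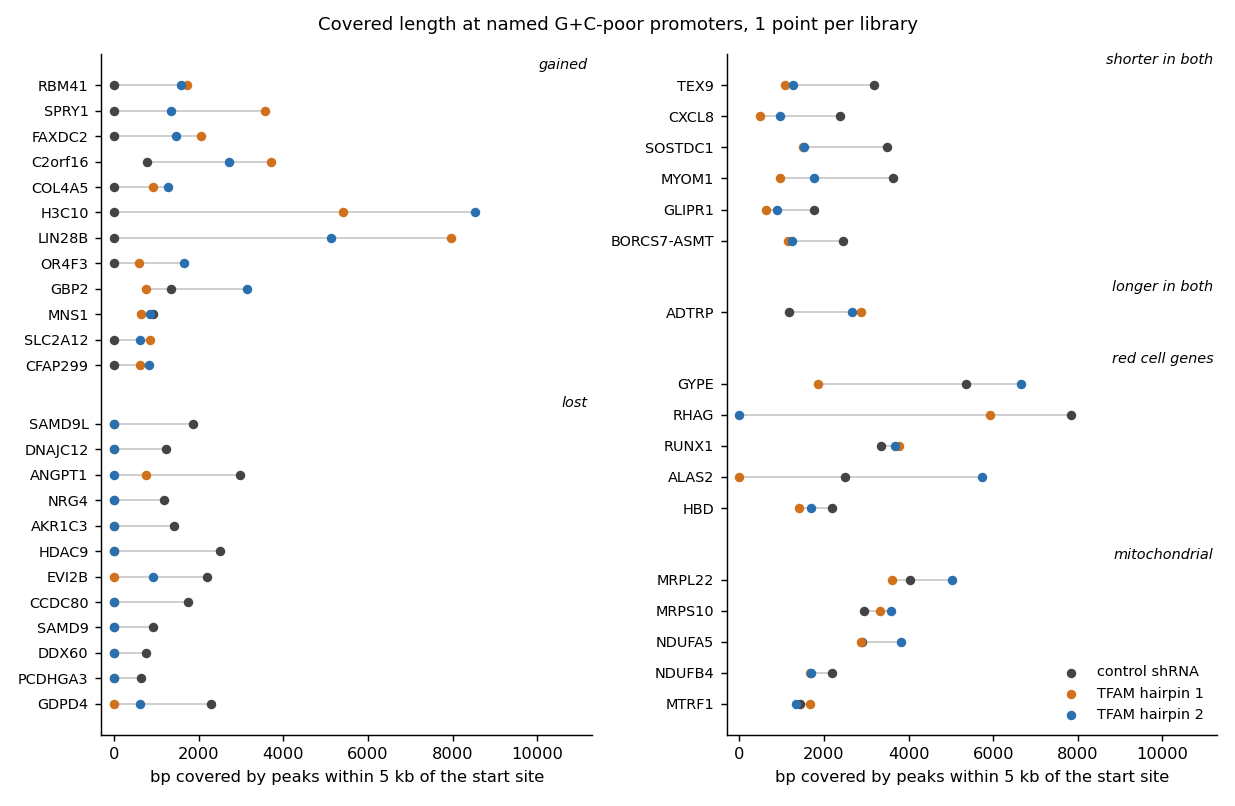
Peak coverage in bp, up to 5 kb either side of the start (x axis, linear), at named G+C-poor promoters, 1 point per library, grouped as gained, lost, at least 1.5-fold shorter or longer in both hairpins, red cell genes and mitochondrial genes. Gained and lost refer to peaks within 1 kb of the start, so points above 0 remain for genes such as GBP2 and EVI2B. ALAS2 has 0 bp in hairpin 1 and RHAG 0 bp in hairpin 2.

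At several red cell genes of this class the hairpins stood on opposite sides of the control. Of 28 genes of the red cell surface and membrane, 7 were G+C-poor, of which 5 were marked, 4 in all lists and none lost or gained, and 20 of the 21 others were marked. GYPB, a membrane protein gene of the MNS blood group, had 4749, 2824 and 5413 bp (control, hairpin 1, hairpin 2), and the related GYPE had 5364, 1849 and 6653 bp. These genes are near-identical copies, so their peaks rest on the reads that tell them apart. In both, hairpin 1 was the lowest library and hairpin 2 the highest. RHAG, the Rh-associated ammonia channel, had 7836 and 5927 bp in the control and hairpin 1 and 0 bp in hairpin 2. Of 37 genes of haemoglobin, heme and erythroid control, 8 were G+C-poor and 3 of these were marked, against 21 of the 29 others. The unmarked ones were HEMGN and the globin genes HBB, HBG1, HBG2 and HBE1. Of these, HBB had 1728, 1369 and 1931 bp covered within 5 kb, outside 1 kb of its start. ALAS2 had 2506 bp, 0 bp and 5738 bp. HBD, the delta-globin gene, had 2178, 1402 and 1703 bp, and RUNX1, a regulator of blood stem cells, had 3358, 3780 and 3687 bp at its G+C-poor start. RHAG was thus without a peak in hairpin 2 and ALAS2 in hairpin 1, and each had more than 5 kb covered in another library, so the limit given above for wide domains applies to them too.

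Over the whole class 14.3% of promoters were marked in at least 1 list. For oxidative phosphorylation and mitochondrial ribosome genes, 7 of 166 were G+C-poor, and 6 of those 7 were marked, all in all lists, as were 151 of the 159 others in at least 1 list. NDUFA5 and NDUFB4, subunits of respiratory complex I, had 2899, 2867 and 3829 bp and 2178, 1660 and 1698 bp. NDUFS4 had 2045, 1500 and 1890 bp and COX7A2, a subunit of cytochrome oxidase, 1841, 1896 and 1652 bp. MRPL22 and MRPS10 of the mitochondrial ribosome had 4026, 3597 and 5023 bp and 2941, 3319 and 3582 bp. No library was lowest throughout these 6. MTRF1, a mitochondrial release factor, was the only G+C-poor gene of 34 in mitochondrial DNA maintenance and expression and had 1431, 1665 and 1346 bp. RPL34 was the only 1 of 89 cytosolic ribosomal protein genes and had 4320, 3875 and 3476 bp.

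The G+C-poor interferon-stimulated genes held 2 lost promoters and 1 gained promoter. Over the whole class, 9.68% of control-marked promoters were lost and 5.22% of those marked in both hairpins were gained. The genes here are too few to be told from these shares. Of 47, 13 were G+C-poor and 7 of those were marked. IFI16, a sensor of foreign DNA, and GBP3, a guanylate-binding GTPase, were lost (840 and 673 bp in the control, 0 bp in both hairpins). The related GBP2 was gained, although the control had a peak within 5 kb of its start, as given above. IFIT2 (1912, 1267 and 1565 bp) and IFIT3 (2338, 1653 and 2968 bp), proteins of antiviral defence, were marked in all lists. IFIT1 lacked hairpin 1 (579, 0 and 908 bp) and GBP4 was marked in hairpin 2 alone (0, 0 and 1397 bp). Of the other 34 genes of this list, 24 were marked and 1 was lost. IDO1, which degrades tryptophan, and GIMAP2, a GTPase of lymphocytes, stand outside the list and were lost as well (749 and 743 bp in the control). They were chosen for mention after their values were seen.

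Of 5 G+C-poor replication-dependent histone genes, 4 were marked, against 37 of the 58 others. H3C13, which has near-identical copies, had 4214, 4234 and 4208 bp, nearly the same in every list, and H4C3 had 3817, 2588 and 3459 bp. H2BC6 had a peak within 1 kb in hairpin 2 alone, although 2427, 1541 and 2016 bp were covered within 5 kb. Of 25 G+C-poor zinc finger genes, 14 were marked, 7 in all lists, against 434 of the 531 others. ZNF229 was lost (659, 0 and 0 bp), ZKSCAN3 lacked hairpin 2 (5850, 5548 and 0 bp), and ZNF175 had 4419, 3460 and 3896 bp. Both G+C-poor genes of acetyl-CoA supply and histone acetylation had peaks in part of the lists, HDAC9 as above and BDH2, an oxidoreductase of ketone and siderophore metabolism, in hairpin 1 alone (0, 539 and 0 bp).

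Olfactory and taste receptor and cytokine genes were seldom marked. Of the 377 olfactory and taste receptor genes, 9 had a peak in some list, against 3 of the 64 others, and 2 had a peak in all, OR8G2P (2911, 1877 and 2030 bp) and OR51T1 (888, 1426 and 1150 bp), the latter inside MMP26. Of 43 G+C-poor cytokine, chemokine and interferon genes only CXCL8 was marked, against 12 of the 63 others. None of 7 G+C-poor cancer-testis antigen genes of chromosome X was marked, against 24 of the 83 others, and at this number 0 cannot be told from the 14.3% of the whole class. As a check on the cells, 5 of 10 K562 markers (LMO2, HBZ, EPOR and TFRC among them) had a promoter peak in all lists. GATA1, KLF1, HBE1 and HBG1 had none in any list, where the limit on wide domains applies as well. HBG1 and HBG2 are near-identical copies, which also limits the reads that fit a single place. An empty list need not mean an unmarked promoter at these genes. Promoters of the liver markers ALB and APOA1 and the neuronal markers SNAP25 and RBFOX3 had no peak in any list. Of the other marker lists, 1 of 6 megakaryocyte (ITGB3), 2 of 7 myeloid (SPI1 and LYZ), 1 of 8 lymphoid (PTPRC) and 0 of 3 fibroblast genes had a promoter peak in all lists.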

How the data were processed

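H3K27ac ChIP-seq peak lists of 3 K562 libraries were used, 1 per group, and the titles gave the groups. Per the labels' protocols, reads that fitted a single place in hg19 were kept. Bowtie 0.12.7 and Picard are named in the submitters' processing notes without their roles. Peak names carry a MACS prefix, but the caller's version, threshold and input use, and the depth, are not given in the sources used here. No file of the input was used here. The deposited score per peak, made by the authors, was 50 or more, reached 3100 and served to order the peaks of each list.

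Start sites came from GENCODE release 44 on GRCh37, with the canonical transcript for 19856 of 20136 genes and the gene's 5′ end for the others. Of the annotated coding genes, 13 of the mitochondrial chromosome were left out. G+C, CpG and motifs were read from the GRCh37 sequence. A promoter was marked when a peak overlapped the start ± 1 kb by at least 1 bp, and regions are peaks of the 3 lists joined at 1 bp of overlap. Covered length is the sequence under peaks within 5 kb of the start. A fold of 1.5 in the same direction in both hairpins was used as the call for length. Without replicates no test was made, and shares carry exact 95% intervals.

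The promoters and the 12 gene lists were chosen with earlier results of these data known. The naming rule took the 12 gained, the 12 lost and the 12 in all lists with the highest score percentile (the smaller of the lists concerned), the 6 largest differences of length in each direction past 1.5-fold, up to 4 of each gene list, and the 3 promoters on each side of the G+C ceiling. Other names are marked in the text as picked with their values known, or complete a count (CHD2, GYPB, NDUFS4, COX7A2, IFIT1, IFIT2 and GBP4). Some genes that the rule names are left out. The code of the class counts was run on simulated data, with 1000 of 1000 promoters recovered. The simulated peaks were centred on starts far from other coding starts. Peaks at the edge of a window or shared by neighbouring starts were therefore not covered. Alternatives were other G+C ceilings, start sites, windows, overlaps, score thresholds, list lengths and joining rules. Work was done in Python 3.11.15 with pysam 0.24.0, pandas 2.3.3, numpy 2.4.6, matplotlib 3.10.9 and SciPy 1.17.1.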

Additional observations from a re-analysis of the deposited data

How the results depend on the processing

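Over 113 values recomputed under 18 alternative settings, 85 stayed within their counting interval (for counts of regions, within 1.5 times), 27 moved by more and 1 changed sign. With a G+C ceiling of 40%, promoters were marked in 7.07% (control), 5.53% (hairpin 1) and 5.84% (hairpin 2). In that set 19.6% were lost and 1.85% gained, beside 1.37% and 2.95% of other promoters. Of the marked, 47.3% were in all lists, beside 86.3%. The median log2 length ratios were -0.311 and -0.226, with 15.1% shorter (beside 0.674%) and 0.0% longer (beside 4.29%) in both hairpins. With a ceiling of 50%, marked shares were 26.8%, 26.3% and 27.3%. Of these promoters 3.13% were lost and 2.76% gained, beside 1.3% and 2.97% of other promoters. The share in all lists was 79.4% (beside 86.9%), and 2.32% were shorter in both hairpins (beside 0.546%). Median log2 ratios were -0.116 and 0.00882, the latter of opposite sign. The moves under both ceilings follow from which promoters the ceiling admits. With the higher-scoring 50% of each list, marked shares were 7.03%, 6.41% and 8.06%, over fewer peaks. Gained were 9.15% (beside 6.29% of other promoters) and in all lists 57.4% (beside 81.2%). In both hairpins 2.16% were shorter (beside 0.364%) and 0.0% longer (beside 2.36%). With every basic transcript start held to the rule, 10.4% were marked in hairpin 2, where the cause was not tested. With the median of all promoters subtracted (0.0425 for hairpin 1 and 0.114 for hairpin 2), the hairpin 2 median was -0.184. The share lost, 3.13% to 19.6%, stayed above that of all other promoters, 1.01% to 1.47%, in each setting that gave it. The setting without peaks of 5 kb or more was chosen after seeing the data. No paired analysis was possible because each group had 1 library. Read depth, unknown here, limits what a missing peak shows.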
